A study of Mus musculus with 13 samples.

Results

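Methylation of the imprinted domain of Snrpn, Ndn, Magel2 and Mkrn3 on mouse chromosome 7 was described in 13 libraries made by reduced representation bisulfite sequencing (RRBS), a method that reads CpG methylation in the part of the genome near cut sites of a restriction enzyme. All CpGs with a read in 2 fixed windows of the mm9 genome were taken, from 67130000 to 67170000 for Snrpn and from 69470000 to 69590000 for Ndn, Magel2 and Mkrn3. This gave 239 CpGs, 50 at Snrpn and 189 at the other 3 genes, of 3338357 CpGs read on chromosomes 1 to 19 and X. A single library read 74 to 161 of the 239.

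The series followed the reprogramming of mouse fibroblasts to induced pluripotent stem cells (iPSCs) and set cells with different numbers of X chromosomes side by side. The groups were female iPSCs labelled XaXa, meaning 2 active X chromosomes (2 libraries, numbered 7 and 8), female iPSCs labelled XO, meaning a single X (4 libraries, numbered 3, 5, 6 and 9), male iPSCs (3 libraries, numbered 1, 2 and 4) and male mouse embryonic fibroblasts, MEFs (2 libraries, numbered 4 and 5). A further library each came from male cells without and with SSEA1, a surface antigen that appears as cells move towards pluripotency. The labels give no treatment, strain or reprogramming method, and say of the iPSCs that feeder cells were removed. They do not say whether libraries of a group came from separate cultures or clones, so p-values here reflect the spread among these libraries alone, which may be technical.

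The domain is a cluster of genes that are expressed from the paternal chromosome, and its human counterpart is the region of Prader-Willi syndrome. Its imprinting centre covers the Snrpn promoter and first exon, where the maternal copy is methylated in the egg and the paternal copy is not. Cells that keep the imprint therefore hold both methylated and unmethylated copies there, and cells that lose it hold mostly 1 kind. Snrpn encodes a core protein of the spliceosome found mainly in neurons. Ndn (necdin) and Magel2 are related proteins of the MAGE family, and Mkrn3 is a RING finger protein known for its part in the timing of puberty. The promoters of Ndn and Mkrn3 are known to take up methylation on the maternal copy after fertilisation, under the control of the imprinting centre.

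2 promoters carry most of what follows, and their sequences are shown with the CpGs that were read in at least 1 library in capitals. Each runs from 250 bases before to 50 bases after the annotated start, and both are from RefSeq on GRCm38.p6, Snrpn from chr7:60005150-60005449 and Mkrn3 from chr7:62420104-62420403, both on the minus strand. They were placed on the mm9 CpGs by the letters around each CpG, not by converting coordinates.
Snrpn: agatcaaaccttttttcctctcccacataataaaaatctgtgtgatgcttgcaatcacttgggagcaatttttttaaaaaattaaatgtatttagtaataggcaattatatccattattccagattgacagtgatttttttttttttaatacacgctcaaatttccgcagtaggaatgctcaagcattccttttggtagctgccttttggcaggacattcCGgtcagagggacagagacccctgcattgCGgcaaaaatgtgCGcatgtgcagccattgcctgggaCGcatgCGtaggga
Mkrn3: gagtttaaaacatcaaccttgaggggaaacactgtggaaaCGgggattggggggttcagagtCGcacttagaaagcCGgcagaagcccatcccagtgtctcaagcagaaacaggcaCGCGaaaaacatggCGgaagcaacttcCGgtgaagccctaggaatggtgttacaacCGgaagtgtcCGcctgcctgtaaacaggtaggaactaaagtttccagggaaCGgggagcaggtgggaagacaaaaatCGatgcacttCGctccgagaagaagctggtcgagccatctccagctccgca

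RefSeq lists 4 starts of Snrpn, and this was the one whose CpGs were read. The Snrpn sequence has 7 CpGs, of which 5 were read and 2 were read in all 13 libraries. The first of these lies 29 bases before the start, at mm9 position 67150114, inside a CCGG, the cut site of the enzyme MspI. The second lies at the start itself, at 67150085, and is part of the letters TGCCGC on the other strand, the motif known for ZFP57, a zinc finger protein that binds methylated imprinting centres. Searched on either strand, CCGG was found in 52.8% and TGCCGC in 11.6% of 32851 RefSeq promoter sequences of this length. The Mkrn3 sequence has 15 CpGs, of which 12 were read and 2 were read in all 13 libraries, 67 and 77 bases before the start (69565106 and 69565116). Of the promoter sequences of Ndn and Magel2, with 11 and 10 CpGs, none could be placed on read CpGs, so these genes are described by windows around them that were set from general knowledge of mm9 and may miss part of the gene. Tiles in these windows were not placed against the gene starts and may lie outside the promoters.

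Facts of the libraries that bear on the results are as follows. Total reads over CpGs ranged from 4784488 in XO 9 to 143148634 in XaXa 8. The mean level of autosomal CpGs, over 20653 CpGs that reached 10 reads in every library, was 33.8% ± 3.95 (SD, n = 2) for XaXa, 55.4% ± 3.71 (SD, n = 4) for XO, 54.6% ± 2.46 (SD, n = 3) in male iPSCs and 61.9% ± 0.997 (SD, n = 2) in MEFs. Read depth on X relative to the autosomes and to male libraries was above all 3 male iPSC libraries (0.976 to 1.02) not only in XaXa 7 and 8 (1.30 and 1.19) but also in XO 3, 5 and 9 (1.21, 1.06 and 1.22), while XO 6 was at 1.01. The library labelled male MEF 5 had an X depth of 1.20 and Y reads at 0.0219% of autosomal reads, against 0.0913% in MEF 4. These 4 libraries stand apart from their labels on these measures, XO 5 only slightly. XaXa 7 and 8 were themselves far below 2 times the male depth, and XO 3 and 9 lay above XaXa 8. X depth thus did not resolve the number of X chromosomes. The autosomal levels of XO 3, 5 and 9 (58.5%, 56.9% and 50.04%) lay above those of XaXa 7 and 8 (36.6% and 30.97%). Whether any label is wrong was not tested. Values without these 4 libraries are given where they move a result by over 1.5 times or change a call. The depth of chromosome 7 was 0.944 to 1.02 in all 13 libraries. The libraries also read different CpGs: 44% of the 50 CpGs at Snrpn were read in MEF or SSEA1 libraries and in no iPSC library, and 38.1% of the 189 CpGs at the other genes in iPSC libraries and in no MEF or SSEA1 library, against 23.8% and 25.9% over the whole series. For this reason the main values are given again on the CpGs read in all 13 libraries.

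At the Snrpn promoter, taken as 67147000 to 67152000 with 25 CpGs read from 67149466 to 67150114, MEFs and male iPSCs mostly held both methylated and unmethylated reads, 2 of the 4 XO libraries were almost free of methylation, and both XaXa libraries were low. A level is the percent of reads over the CpGs that were methylated, and a read over several CpGs is counted once for each, so the 95% Wilson intervals given with single libraries are too narrow and cover counting error only. The level was 47.3% in MEF 4 (110 reads) and 25.9% in MEF 5 (359 reads). In male iPSCs it was 53.2% in library 1 (222 reads), 45.2% in library 2 (73 reads) and 17.4% in library 4 (570 reads). MEFs and male iPSCs overlapped, and within each of these groups 1 library was much lower than the others.

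Among the libraries labelled XO the level was 1.03% in XO 3 (2 of 195 reads, interval 0.282% to 3.66%), 5.14% in XO 5 (253 reads, interval 3.03% to 8.59%), 37.8% in XO 6 (978 reads, interval 34.8% to 40.9%) and 18.9% in XO 9 (37 reads, interval 9.48% to 34.2%). XO 6, the library with an X depth like that of male cells, was the highest, and the intervals of XO 3 and 5 lay far below it. Whether the X depth had a part in this was not tested. In XaXa the level was 12.95% in library 7 (193 reads) and 9.12% in library 8 (1447 reads). Both XaXa libraries lay below every male iPSC and MEF library and inside the range of XO.

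**Figure D1:**
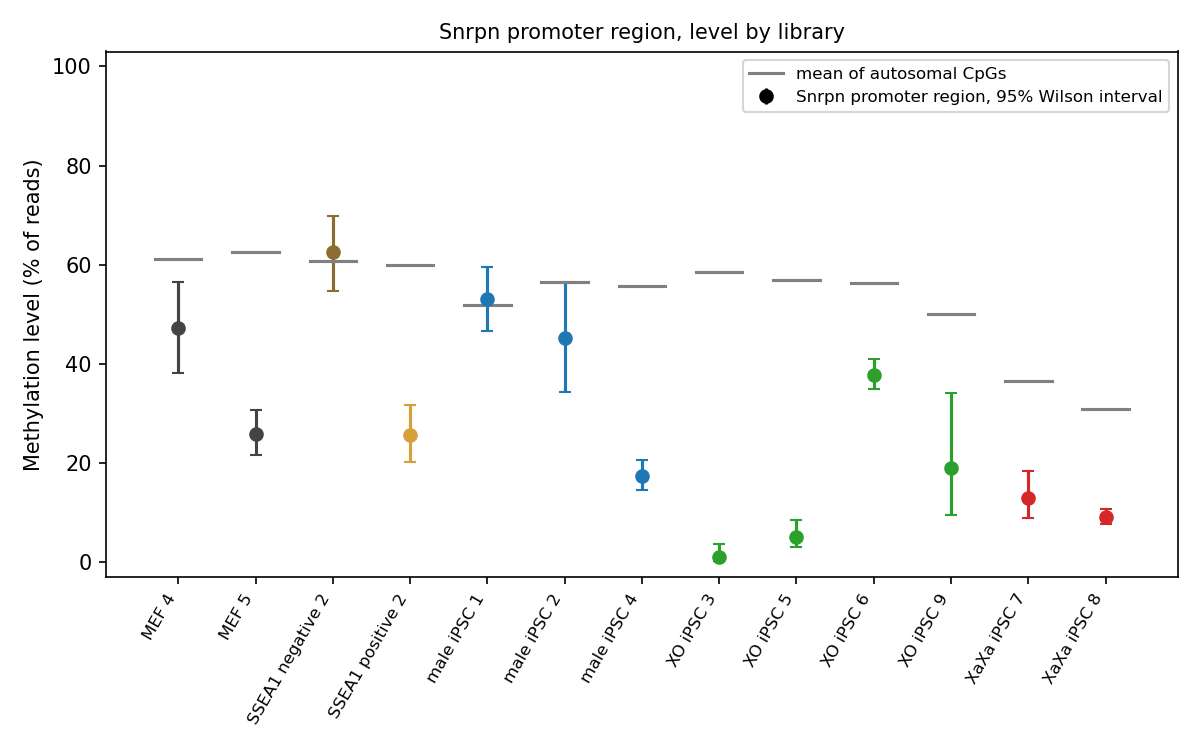
Methylation level of the Snrpn promoter region (percent of reads, with 95% Wilson intervals) in each of the 13 libraries, coloured by group, with the mean level of autosomal CpGs of the same library as a grey bar. XO 3 and 5 sit at 1.03% and 5.14% although their autosomal levels are like those of XO 6 and the male iPSCs, and the XaXa libraries are low on both measures.

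The group means were 36.6% ± 15.1 (SD, n = 2) in MEFs, 38.6% ± 18.8 (SD, n = 3) in male iPSCs, 15.7% ± 16.6 (SD, n = 4) in the XO group and 11.04% ± 2.71 (SD, n = 2) in XaXa. None of the 6 pairwise differences passed an exact two-sided permutation test after Benjamini-Hochberg adjustment over the 6. None could have at a threshold of 0.05. The smallest raw p possible is 0.0286 for XO against male iPSC, 0.0667 for XO against XaXa or MEF, 0.1 for male iPSC against XaXa or MEF and 0.333 for XaXa against MEF. Even with all 6 at these values no adjusted p would be under 0.05, so the adjusted test could not decide. XaXa was 27.5 points below male iPSCs (exact permutation p = 0.2, adjusted p = 0.4) and 25.6 points below MEFs (exact permutation p = 0.333, adjusted p = 0.5). XO was 22.8 points below male iPSCs (exact permutation p = 0.171, adjusted p = 0.4) and 20.9 points below MEFs (exact permutation p = 0.2, adjusted p = 0.4). With 1 MEF library left out these MEF comparisons moved: XO minus MEF was -10.2 points without MEF 4 and -31.5 points without MEF 5, and XaXa minus MEF was -14.9 points and -36.2 points. The difference between XO and male iPSCs came to -0.743 points, and that between XO and MEFs to 1.24 points, when XO 3, 5 and 9 were left out, which leaves XO 6 alone. XaXa and XO differed by -4.69 points (exact permutation p = 0.8, adjusted p = 0.96), by -2.78 points without XaXa 8, by -9.59 and -8.22 points without XO 3 and XO 5, by 2.68 points without XO 6 and by -26.8 points without XO 3, 5 and 9 (exact permutation p = 0.333, the smallest then possible). Male iPSCs and MEFs differed by 1.99 points (exact permutation p = 1), and by -8.70 points without MEF 5. Leaving out any 1 of the other 4 libraries gave values from -5.30 to 12.7 points, the highest without MEF 4.

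The 6 CpGs of the region read in all 13 libraries gave nearly the same picture, with means of 37.9% ± 11.1 (SD, n = 2) in MEFs, 38.4% ± 19.2 (SD, n = 3) in male iPSCs, 16.5% ± 15.9 (SD, n = 4) in the XO group and 10.8% ± 3.31 (SD, n = 2) in XaXa. The order of the groups was the same. MEFs and male iPSCs lay within 1 SD of each other, and the gap between XO and XaXa was within the SD of XO but larger than that of XaXa.

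The level was also set against the autosomal level of the same library, since XaXa cells were lower over the whole genome. The Snrpn promoter was below the autosomal mean by 22.7 points in XaXa, by 39.7 points in XO, by 16.0 points in male iPSCs and by 25.3 points in MEFs on average, with SDs of 1.24 (n = 2), 18.1 (n = 4), 20.2 (n = 3) and 16.1 (n = 2). On this scale XaXa was no longer the lowest group: it was 17.0 points above XO (exact permutation p = 0.267, adjusted p = 0.4) and 6.68 points below male iPSCs (exact permutation p = 0.7). XO was 23.7 points below male iPSCs (exact permutation p = 0.143, adjusted p = 0.4), but the difference was -2.46 points without XO 3, 5 and 9 (exact permutation p = 1) and -14.97 points without male iPSC 1. Leaving out XO 3, 5 and 9 turned the XaXa minus XO difference to -4.21 points, leaving out XO 3 alone made it 11.1 points, and leaving out male iPSC 1 turned the XaXa minus male iPSC difference to 2.01 points, while it was -17.8 points without male iPSC 4 and -4.27 points without male iPSC 2. The autosomal mean used here weighs CpGs equally, while the Snrpn level pools reads. With the autosomal level weighted by reads, XaXa minus male iPSC grew to -13.7 points and XO minus male iPSC to -30.3 points. XaXa minus XO was then 16.6 points. As a ratio, the Snrpn promoter was at 0.324 of the autosomal level in XaXa, 0.289 in XO, 0.713 in male iPSCs and 0.593 in MEFs.

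Within the promoter, 3 stretches were read in all libraries, and XO 3 and 5 were low in each. The stretch of 3 CpGs that begins 107 bases after the start (67149938 to 67149978) was at 1.11%, 6.30%, 31.3% and 18.8% in XO 3, 5, 6 and 9, at 9.40% and 8.61% in XaXa 7 and 8, and at 61.8%, 56.5% and 12.3% in male iPSC 1, 2 and 4. MEF 4 and 5 had 52.3% and 33.3% there. Male iPSC 4 was thus close to the XaXa libraries, while male iPSC 1 and 2 were above both MEFs. The stretch of 4 CpGs at 299 to 338 bases after the start (67149747 to 67149786) was at 0% in XO 3 (54 reads, which allows up to 5.56%), 1.67% in XO 5 and 45.5% in XO 6. The other XO library, XO 9, had 7 reads there.

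The pair of CpGs at the start, which hold the TGCCGC and the MspI site of the sequence above, was at 2.27%, 7.69%, 40.1% and 20% in XO 3, 5, 6 and 9, with 10 reads in XO 9. The XaXa libraries differed there, with 30.0% in XaXa 7 (40 reads, interval 18.1% to 45.4%) and 8.03% in XaXa 8 (411 reads, interval 5.77% to 11.1%), although they were alike over the whole promoter. Male iPSC 1, 2 and 4 had 47.3%, 16.7% and 26.5%, and MEF 4 and 5 had 40.0% and 15.0%. Male iPSC 4 was higher at the start than in the stretch after it, while male iPSC 2, on 12 reads, was lower.

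**Figure D2:**
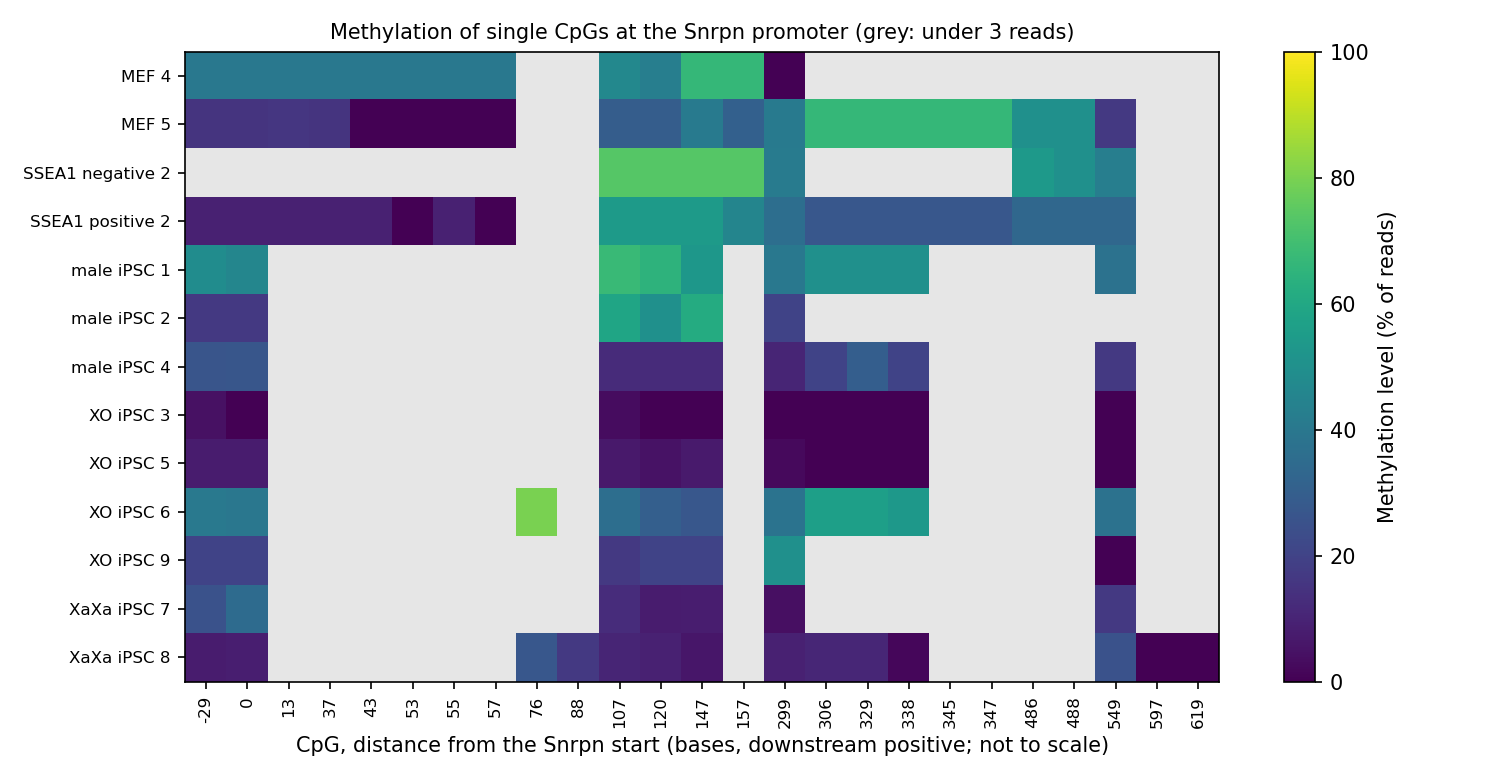
Methylation level (colour, percent of reads) of each CpG of the Snrpn promoter region in each library, ordered by distance from the start, with CpGs under 3 reads in grey. The dark rows of XO 3 and 5 run through all CpGs read, XO 6 is intermediate at nearly all of them, and the CpGs 13 to 57 bases after the start were read in the MEF and SSEA1 positive libraries only, at 3 reads or more.

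The libraries that lacked methylation at the Snrpn promoter had it nearby. In the tile from 67157001, on the upstream side of the start, 4 CpGs were at 71.4% in XO 3 (14 reads), 85.7% in XO 5 (28 reads) and 79.5% in XO 6 (78 reads). The same tile was at 37.5% in XaXa 7, 48.5% in XaXa 8, at 71.4%, 100% and 87.5% in male iPSC 1, 2 and 4, and at 81.4% in MEF 5. XO 3 and 5 were therefore alike to XO 6 and the male iPSCs at this tile and unlike them at the promoter. Both XaXa libraries were low, as was the SSEA1 negative library at 40.9% (22 reads), which was the most methylated at the promoter. The tile was not tested, since MEF 4 and XO 9 had fewer than 10 reads.

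For tests over tiles of 1 kb, the reads of each tile were compared between groups in a model over 101787 tiles of the genome that had 10 or more reads in all 11 libraries of the 4 replicated groups. A tile was called changed at an adjusted p under 0.05 with a difference of at least 10 percentage points. Of 27 tiles of the domain with a read, 9 could be tested, 2 at Snrpn and 7 in the other window. Over the genome 72.2% of tiles were called lower in XaXa than in XO, 65.5% lower in XaXa than in male iPSCs and 66.8% lower in XaXa than in MEFs. The share called lower was 18.9% in male iPSCs against MEFs and 16.9% in XO against MEFs. In XO against male iPSCs 0.000982% were called lower, which was 1 tile. Shares called higher were 0.0128%, 0.104% and 0.838% for XaXa against XO, male iPSCs and MEFs, 4.72% and 5.50% for male iPSCs and XO against MEFs, and 0.00% for XO against male iPSCs. No tile of the domain was called higher in any of these comparisons. The 3 comparisons with MEFs share the MEF libraries, and those with XaXa or male iPSCs likewise share these.

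The first XaXa comparison concerns the number of active X chromosomes in female cells. In XaXa against XO, 4 of the 9 tiles were called lower, against a background share of 72.2%. They were the tile from 69473001 on the Snrpn side of the Ndn window (-24.98 points, adjusted p = 0.00604), the tile from 69496001 in the Ndn window (-30.8 points, adjusted p = 0.00163) and the tiles from 69522001 (-22.7 points, adjusted p = 0.00737) and 69528001 (-30.2 points, adjusted p = 0.00129) in the Magel2 window. None of the 4 lay at Snrpn or Mkrn3 when all libraries were used. The autosomal means of the same groups, 33.8% and 55.4%, lay apart by a like amount, and how much of the tile differences goes with this was not tested. Without XaXa 8, the deepest library, 0 of the 9 tiles were called, with 3 at an unadjusted p under 0.05. Without XO 9 the count was 7 of 12 tiles that could then be tested, and it was also 7 of 12 when XO 3, 5 and 9 were left out. Among these last 7 was the Snrpn tile from 67149001 (-27.5 points, adjusted p = 0.0336), which was not called with all XO libraries (-6.24 points, adjusted p = 0.511).

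For XaXa against male iPSCs the Mkrn3 tiles were again too low for a call, with male iPSC means of 5.37% and 1.88%. In this comparison 5 of the 9 tiles were called lower, near the background share of 65.5%. These were the tile from 67149001, on the gene side of the Snrpn start (-30.7 points, adjusted p = 0.0361), and the tiles from 69473001, 69496001, 69522001 and 69528001 (-36.8, -24.1, -32.2 and -33.5 points). At the Snrpn tile the level was 8.55% and 9.37% in XaXa 7 and 8 and 56.1%, 50% and 12.9% in male iPSC 1, 2 and 4. The groups did not overlap, but male iPSC 4 was close to XaXa. The call at Snrpn was lost under 7 of 10 other settings, among them each XaXa library left out (adjusted p = 0.111 and 0.169) and male iPSC 1 or 2 left out (0.16 and 0.0937). Without XaXa 8 the count fell to 1 tile, that from 69473001. In XO against male iPSCs 0 of the 9 tiles were called, none (0) reached an unadjusted p below 0.05, and limma run on log2 ratios also called 0.

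The tiles called in XaXa had different base levels. The tile from 69473001, which holds 3 CpGs, was at 33.3% and 35.9% in XaXa 7 and 8, 57.1%, 55.6%, 75.7% and 50% in XO 3, 5, 6 and 9, 67.7%, 70.0% and 76.4% in male iPSC 1, 2 and 4, and 81.2% and 61.0% in MEF 4 and 5. XaXa lay below all of these, and the SSEA1 negative and positive libraries were lower still, at 31.5% (54 reads) and 29.2% (24 reads). At the tile from 69496001, which holds 5 CpGs, the level was 41.7% and 30.8% in XaXa 7 and 8, 87.7%, 60.9%, 61.1% and 58.5% in XO 3, 5, 6 and 9, 55.0%, 64.9% and 61.0% in male iPSC 1, 2 and 4, and 57.4% and 52.0% in MEF 4 and 5. XaXa lay below all of these, and XO 3 stood above the others. At the tile from 69528001, which holds 2 CpGs, XaXa 7 and 8 were at 59.0% and 48.7%, and the XO, male iPSC and MEF libraries lay between 76.5% and 95.2%. Outside XaXa these 3 tiles were at 50% or more in every iPSC and MEF library.

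**Figure D3:**
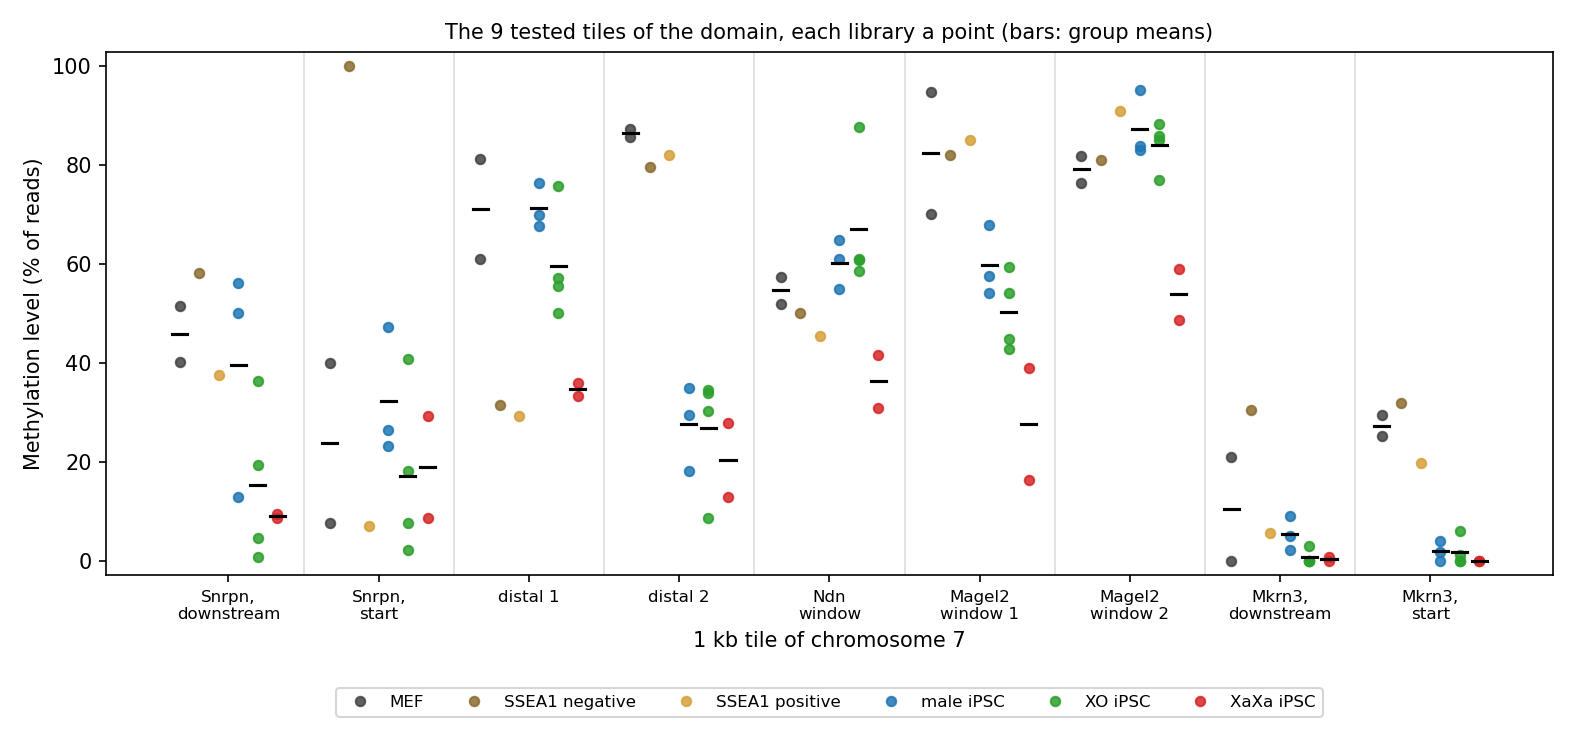
Methylation level (percent of reads) of the 9 tested tiles, 1 point per library, coloured by group, with black bars for the means of groups with more than 1 library. The tile named distal 2 (from 69480001) separates MEF and SSEA1 libraries from all iPSC libraries, and the tile of the Mkrn3 start does so at a lower level. The tile named distal 1 (from 69473001) has XaXa at the bottom of the iPSCs. So do the tested tiles in the Ndn window (from 69496001) and the Magel2 window.

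The comparison of iPSCs with MEFs concerns reprogramming. 2 tiles fell in male iPSCs against MEFs, the tile from 69480001 and the tile of the Mkrn3 start from 69565001, of 9 tested against a background of 18.9%. Both were also called in XO and in XaXa against MEFs, and both kept these calls under every alternative in which they were tested. In XO against MEFs 3 of 9 tiles were called lower (background 16.9%), and in XaXa against MEFs 6 of 9 (background 66.8%). The 6 included the Snrpn tile from 67149001 (-36.8 points, adjusted p = 0.0215), a call that was lost without any 1 of the 4 libraries compared (adjusted p = 0.0614 to 0.0997). The other Snrpn tile, from 67150001 with the start, was called in none of the 6 comparisons.

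The tile from 69480001 lies between Snrpn and the Ndn window, and its CpGs were read from 69480005 to 69480606. No annotation of mm9 was used, so what lies there is not stated. Its level was 87.3% in MEF 4 (165 reads) and 85.7% in MEF 5 (488 reads), and the SSEA1 negative and positive libraries had 79.7% and 82.1%. In male iPSC 1, 2 and 4 it was 18.0%, 35.0% and 29.5%, in XO 3, 5, 6 and 9 it was 34.5%, 30.2%, 33.9% and 8.70% (23 reads in XO 9), and in XaXa 7 and 8 it was 27.9% and 12.8%. Every iPSC library lay below every MEF and SSEA1 library by a wide margin, and the iPSC groups overlapped. The difference from MEFs was -58.9 points in male iPSCs (adjusted p = 4.17e-05), -59.6 points in XO (adjusted p = 4.74e-05) and -66.1 points in XaXa (adjusted p = 1.81e-05). On the 11 CpGs read in all 13 libraries the levels were 83.9% and 84.2% in MEFs, 79.9% and 79.5% in the SSEA1 libraries and 8.70% to 34.9% in the 9 iPSC libraries, so the gap did not rest on different CpGs. The 6 CpGs just before them, from 69479919 to 69479994, were read in iPSC libraries only, at 0% to 54.5%. The SSEA1 libraries, 1 of each kind, stood with the MEFs whichever the sort.

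Mkrn3 was low in every iPSC library. The tile of its start had 15 CpGs read from 69565029 to 69565631, which include the promoter CpGs in capitals above. The level was 25.2% in MEF 4 (107 reads), 29.4% in MEF 5 (218 reads), 31.9% in the SSEA1 negative library (91 reads) and 19.7% in the SSEA1 positive library (127 reads). It was 1.75%, 0% and 3.89% in male iPSC 1, 2 and 4, 0%, 5.97%, 1.02% and 0% in XO 3, 5, 6 and 9, and 0% in both XaXa libraries. The 0 of 239 reads in XaXa 8 allow a level of up to 1.26%, and the 0 of 63 in XaXa 7 up to 4.76%, while the 0 of 18 in XO 9 allow up to 16.7%. The difference from MEFs was -25.4 points in male iPSCs (adjusted p = 0.00263), -25.5 points in XO (adjusted p = 0.00171) and -27.3 points in XaXa (adjusted p = 0.000335). On the 2 CpGs read in all 13 libraries, 67 and 77 bases before the start, MEFs were at 26.2% and 26.9% and the 9 iPSC libraries between 0% and 7.14%. XO 3 and 5, which had almost no methylation at Snrpn, and XO 6, which had, were all low here, at 5.97% or less.

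The tile next to it, from 69564001 on the gene side of the Mkrn3 start, was low in most libraries. It was at 0% in MEF 4 (21 reads, which allows up to 14.3%), 20.9% in MEF 5, 30.4% in the SSEA1 negative and 5.56% in the SSEA1 positive library, and 0% to 9.03% in the iPSCs, with male iPSC 4 the highest. The MEF libraries disagreed. It was called lower in XaXa than in MEFs (-10.1 points, adjusted p = 0.00668), and this call was lost without MEF 5 (adjusted p = 0.795) and without XaXa 7, where the difference of -9.76 points was under the 10 points that a call needs.

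**Figure D4:**
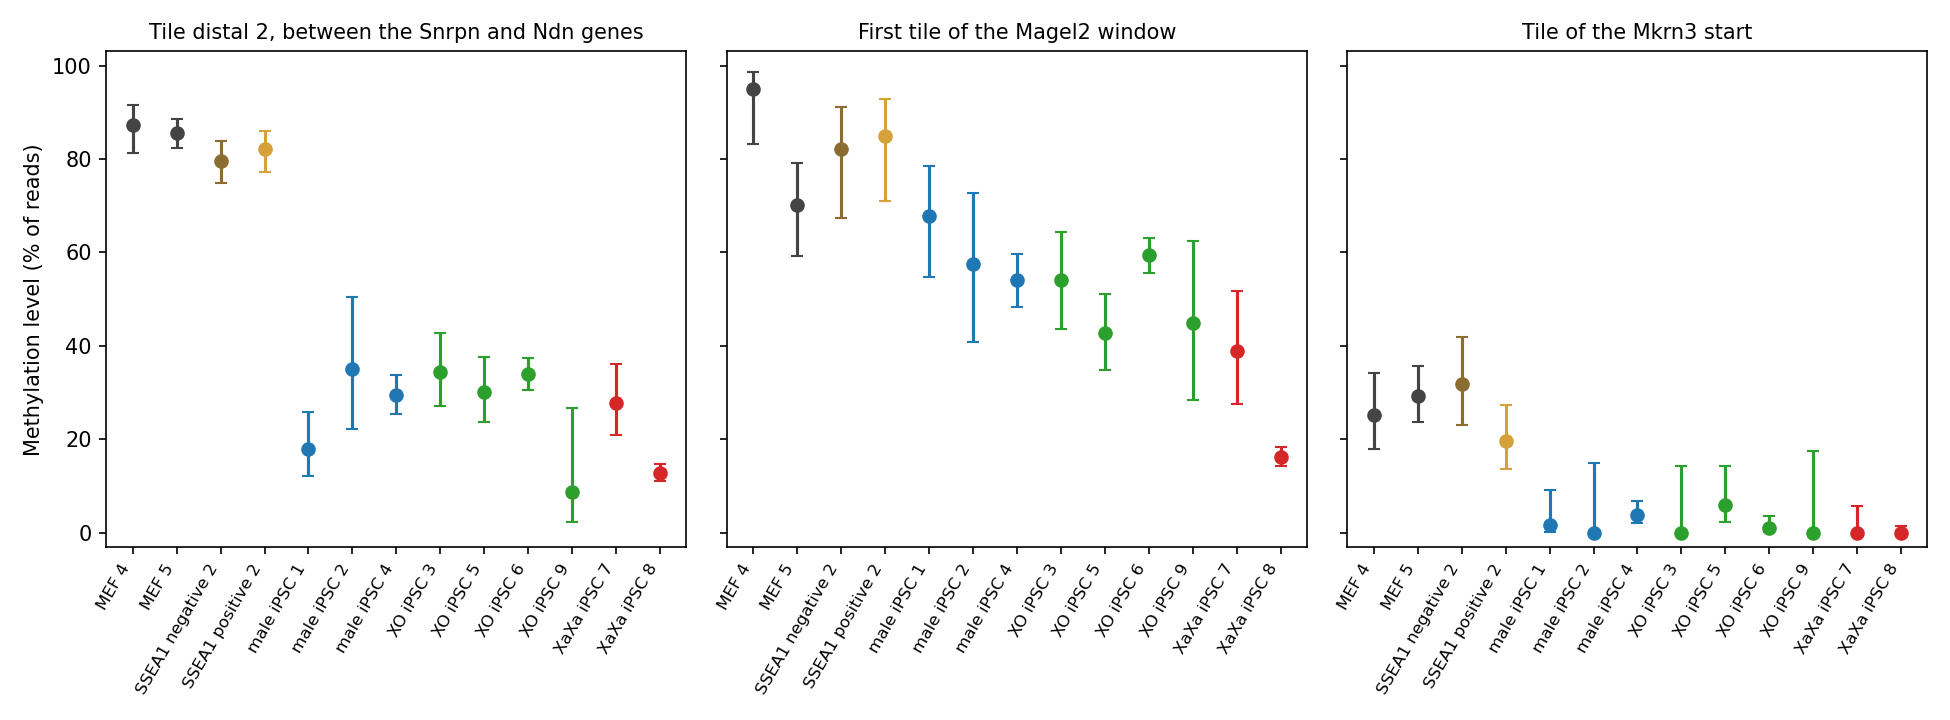
Methylation level (percent of reads, with 95% Wilson intervals) in each library for 3 tiles: the tile from 69480001, the tile from 69522001 in the Magel2 window and the tile of the Mkrn3 start from 69565001. In the first and the third all 9 iPSC libraries lie below the 4 MEF and SSEA1 libraries, and in the Magel2 tile the levels of MEF 5 (70.1%) and male iPSC 1 (67.9%) nearly meet.

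At Magel2 the tile from 69522001 was at 94.9% and 70.1% in MEF 4 and 5, 82.1% in the SSEA1 negative and 85% in the SSEA1 positive library, 67.9%, 57.6% and 54.1% in male iPSC 1, 2 and 4, 54.1%, 42.9%, 59.4% and 44.8% in XO 3, 5, 6 and 9, and 39.0% and 16.3% in XaXa 7 and 8. The levels were in the order MEFs, male iPSCs, XO and XaXa, and male iPSCs and XO overlapped. It was called lower than in MEFs in XO (-32.2 points, adjusted p = 0.0289) and XaXa (-54.9 points, adjusted p = 0.000301) and was not called in male iPSCs (-22.7 points, adjusted p = 0.107), although it was without MEF 5 (-35.04 points, adjusted p = 0.0364). The tile held 32 CpGs, and none of them was read in all 13 libraries, so MEF and iPSC levels come in part from different CpGs. On the CpGs read in each of the 11 libraries of the model, the XO call was lost (adjusted p = 0.545). It was lost as well without MEF 4 (0.266), without XO 5 (0.0669), without XO 3, 5 and 9 (0.262) and without weights for depth (0.127).

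Over the whole window of Ndn, Magel2 and Mkrn3 the level was 63.9% and 60.6% in MEF 4 and 5, 42.4%, 50.9% and 40.1% in male iPSC 1, 2 and 4, 50.5%, 35.5%, 40.1% and 34.8% in XO 3, 5, 6 and 9, and 27.7% and 15.2% in XaXa 7 and 8. The means were 62.3% ± 2.36 (SD, n = 2) in MEFs, 44.5% ± 5.71 (SD, n = 3) in male iPSCs, 40.2% ± 7.26 (SD, n = 4) in the XO group and 21.5% ± 8.85 (SD, n = 2) in XaXa. MEFs lay above all iPSCs and XaXa below all other iPSCs. The differences were -17.8 points for male iPSCs minus MEFs (exact permutation p = 0.1, adjusted p = 0.15), -22.0 points for XO minus MEFs (exact permutation p = 0.0667, adjusted p = 0.15) and -40.8 points for XaXa minus MEFs (exact permutation p = 0.333, adjusted p = 0.4). XaXa was 18.7 points below XO (exact permutation p = 0.0667, adjusted p = 0.15) and 23.0 points below male iPSCs (exact permutation p = 0.1, adjusted p = 0.15). In each of these 5 comparisons the groups did not overlap and the raw p was the smallest the design allows. None passed the adjustment, which no comparison could at 0.05 with these group sizes. On CpGs with at least 10 reads alone, male iPSCs minus MEFs shrank to -7.54 points (exact permutation p = 0.4). XO minus MEFs shrank to -7.76 points (exact permutation p = 0.533), while XaXa minus XO grew to -28.3 points (exact permutation p = 0.133). In none of the latter was the raw p still the smallest possible. The XO minus male iPSC difference was -4.23 points (exact permutation p = 0.457) and ranged from -7.66 points without XO 3 to -0.998 points without male iPSC 2. Without XO 3, 5 and 9 the XaXa minus XO difference was -18.6 points, and without MEF 5 the male iPSC minus MEF difference was -19.5 points, both close to the values with them. Without XaXa 8 the XaXa minus XO difference was -12.5 points. The XO libraries ranged from 34.8% to 50.5% here and from 1.03% to 37.8% at Snrpn, and XO 3 was the highest of them here and the lowest there.

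By gene, the Ndn window was at 43.0% ± 12.2 (SD, n = 2) in MEFs, 47.6% ± 9.45 (SD, n = 3) in male iPSCs, 48.1% ± 13.6 (SD, n = 4) in the XO group and 24.1% ± 11.1 (SD, n = 2) in XaXa. MEFs, male iPSCs and XO lay within 1 SD of each other. This window pools 2 tiles with unlike levels, so its means describe neither. Group means at the tile from 69493001 were 23.1% in MEFs, 7.06% in male iPSCs, 7.01% in XO and 0.805% in XaXa. Those at the tile from 69496001 were 54.7%, 60.3%, 67.04% and 36.2% in the same order. The former was not tested, since XO 9 had 8 reads there. The Magel2 window was at 84.0% ± 12.2 (SD, n = 2) in MEFs, 69.6% ± 4.28 (SD, n = 3) in male iPSCs, 60.6% ± 8.10 (SD, n = 4) in the XO group and 34.2% ± 15.1 (SD, n = 2) in XaXa. The Mkrn3 window was at 23.8% ± 3.84 (SD, n = 2) in MEFs, 3.57% ± 2.49 (SD, n = 3) in male iPSCs, 1.01% ± 1.26 (SD, n = 4) in the XO group and 0.305% ± 0.431 (SD, n = 2) in XaXa. Mkrn3 was thus the least and Magel2 the most methylated of the 3 in every group. Both MEF libraries lay above all iPSC libraries at Mkrn3 and Magel2 and overlapped with them at Ndn. At Magel2 this depended on which CpGs were read. On the 2 CpGs of its window read in all 13 libraries, MEFs ranged from 78.9% to 88.9%. Male iPSCs ranged there from 75.0% to 80.5% and XO from 61.1% to 82.1%, so both overlapped with MEFs, while XaXa was at 34.9% and 46.0%.

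The SSEA1 libraries had no replicates, so their difference was not tested. At the Snrpn promoter the SSEA1 negative library was at 62.6% (155 reads, interval 54.7% to 69.8%) and the SSEA1 positive library at 25.6% (219 reads, interval 20.2% to 31.7%). On the 6 shared CpGs they were at 69.9% and 36.3%. The negative library was the highest of all 13 on both, and the positive library lay within the range of MEFs or close to it. In the Ndn window the tile from 69493001 showed the same order, at 78.6% (28 reads) in the negative and 6.38% (47 reads) in the positive library. MEF 4 was at 40.0% (30 reads) and MEF 5 at 6.25% (64 reads), and the iPSC libraries were between 0% and 16.7%. The 4 CpGs of this tile read in all 13 libraries were at 93.8% (16 reads) and 25% (12 reads) in the SSEA1 negative and positive libraries and at 0% (4 reads) and 4.17% (24 reads) in MEF 4 and 5, so the value of MEF 4 depended on which CpGs were read. At the tile from 69480001 the SSEA1 libraries did not stand apart, at 79.7% and 82.1%.

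Other genes of the region gave few reads. Ube3a, a ubiquitin ligase gene expressed from the maternal copy in neurons, has a promoter that is known to be free of methylation on both copies. Over the 16 of its 29 CpGs that were read, the level was 1.59% in MEF 4 (63 reads) and 0% in the 10 other libraries with reads, which had 13 to 195 reads each. For Peg12, a paternally expressed neighbour of Mkrn3, 4 CpGs were read, with 62 reads in XaXa 8 and 23 or fewer elsewhere, too few to compare groups.

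2 other imprinting centres of chromosome 7 that are methylated on the maternal copy were read for comparison, each in a window set from general knowledge of mm9. At Kcnq1ot1 the level was 12.4%, 1.56% and 20.7% in XO 3, 5 and 6, 7.69% and 6.61% in XaXa 7 and 8, 57.1%, 14.6% and 25.8% in male iPSC 1, 2 and 4, and 27.6% and 42.0% in MEF 4 and 5. XO 9 had 6 reads there. At Peg3 the level was 0% in XO 3 (19 reads, which allows up to 15.8%), 4.65% in XO 5 (43 reads) and 38.7% in XO 6 (137 reads), and 8.70% and 11.7% in XaXa 7 and 8. Male iPSC 1, 2 and 4 were at 50% (20 reads), 57.1% (7 reads) and 27.6% (58 reads) at Peg3. MEF 4 and 5 were at 25% (20 reads) and 28.9% (38 reads) there, and XO 9 at 50% on 4 reads. XO 6 was above XO 3 and 5 at all 3 centres, and male iPSC 1 was at 50% or above at all 3. The SSEA1 negative and positive libraries were at 50% and 0.9804% at Kcnq1ot1 and at 50% (26 reads) and 69.2% (13 reads) at Peg3, so their order at Snrpn was not the order at Peg3.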

How the data were processed

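RRBS of genomic DNA gave 1 table per library. Per the file headers, each lists for every CpG the counts deposited by the authors, of reads and of methylated reads, without normalisation, and the methylated fraction deposited by the authors, which was not used. Per the submitters' processing notes the reads were aligned with BSMAP to mm9. The aligner's version is not given in sources used here, nor is any trimming or filter. Identical RRBS reads cannot be told from PCR copies.

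Reads were summed over CpGs per tile or region, and positions are written from 1. Groups follow the source labels. Levels were compared with exact two-sided permutation tests of the difference of means, adjusted by the Benjamini-Hochberg method over 6 comparisons. Tiles of 1 kb with at least 10 reads in each of 11 libraries were fitted with a quasi-binomial model (group means as terms), dispersion moderated with limma's squeezeVar and kept at 1 or above, and p-values adjusted over all tiles. A call also needed the fitted and the observed difference to have the same sign. Reads were weighted for depth, because the model without weights called too many unchanged tiles when tested on simulated data. This was a change from the planned model, and the fit without weights is an alternative.

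The members, regions and lists were chosen with earlier results of these data known. The rule named the Snrpn promoter region, its tiles and its CpGs read in nearly all libraries, the other tested tiles, the windows of Ndn, Magel2 and Mkrn3, neighbouring genes where read, and Peg3 and Kcnq1ot1. Further tiles named with too few reads to test were chosen after their values were seen. Promoter letters from RefSeq were placed where at least 5 CpGs matched. The tools were R 4.3.3 with limma 3.58.1, and Python 3.11.15 with matplotlib 3.10.9, scipy 1.17.1, pandas 2.3.3 and numpy 2.4.6.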

Additional observations from a re-analysis of the deposited data

Results flagged for a closer look

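In 4 of 16 sets of 4 XO libraries, 1 library stood apart from the other 3 by Dixon's test at the 95% level. The rate of about 1 of 20 sets by chance holds for normal values of equal precision. Percentages from unequal numbers of reads, some near 0%, are not such values, so the count of 4 cannot be set against that rate. XO 9 was low at the tile from 69480001, with 8.70% of 23 reads. XO 3 was high at the tile from 69496001 in the Ndn window, with 87.7%. XO 6 was the single XO library above 0% at the tile from 69564001 of Mkrn3, with 3.03%. With the other 3 at 0%, any level above 0% would have stood apart there. XO 5 was the highest at the tile of the Mkrn3 start, with 5.97%, also near the floor.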

How the results depend on the processing

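All 60 alternative values of the level of the Ndn, Magel2 and Mkrn3 window kept their direction, as did 57 of 63 at the Snrpn promoter and 24 of 26 of its level against the autosomes. The size at that window was less stable. On CpGs with at least 10 reads male iPSC minus MEF shrank to -7.54 points and XO minus MEF to -7.76 points. As a mean over CpGs with at least 5 reads they grew to -25.6 and -30.2 points. Beyond the reversals given above, the male iPSC minus MEF difference at Snrpn turned to -1.57 points as a mean over CpGs with at least 5 reads, and ranged from -8.70 to 12.7 points with single libraries left out. With single libraries left out, the XaXa minus XO difference at Snrpn ranged from -9.59 to 2.68 points, and XaXa minus male iPSC against the autosomes from -17.8 to 2.01 points. Without XO 3, 5 and 9, which leaves an XO group of 1 library assumed to vary like the others, the values were 1.24 points for XO minus MEF at Snrpn, -4.21 points for XaXa minus XO against the autosomes, and 7 tiles for XaXa against XO. With at least 20 reads per library 4 tiles were tested, and 2, 2, 1 and 3 were called for XaXa against XO, XaXa against male iPSC, male iPSC against MEF and XaXa against MEF. Limma on log2 ratios called 3 for XaXa against male iPSC, and a fit over the 2 groups alone called 8 of 13, and 10 for XaXa against MEF, where more tiles could be tested. With single libraries left out the counts were 0 to 7 for XaXa against XO, 1 to 5 for XaXa against male iPSC and 2 to 5 for XO against MEF, the 5 without XO 6. No paired analysis was possible because the groups share fewer than 2 replicate numbers. Few reads limit single libraries most in XO 9, with 37 reads over the Snrpn promoter.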
